A study of Drosophila melanogaster with 4 samples.

Results

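Tightly packed H3K36me3 regions are stretches of marked chromatin that lie within 2000 bases of another marked stretch on both sides. They were chosen by position from the series-level list of enriched regions, as regions on the arms 2L, 2R, 3L, 3R, 4 and X whose gaps to the previous and to the next region were both under 2000 bases. The first and last region of each arm, 12 regions in all, were left out of the choice. The rule found 439 packed regions among 4178 regions on these arms and 4468 in the whole list. A packed region is always an inner member of a run, which is a chain of at least 3 regions joined by such short gaps, and the 439 packed regions sat in 290 runs.

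The regions come from chromatin immunoprecipitation followed by sequencing (ChIP-seq) on whole wild-type Drosophila melanogaster embryos of the Oregon-R strain, 14 to 16 h old and fixed with 1.8% formaldehyde. There are 2 ChIP libraries and 2 input libraries, all of this 1 genotype and age, with no treatment. Each input is tied by its label to 1 ChIP list and has no region list of its own here. Whether each replicate was its own collection of embryos is not stated, and the spread between replicates may thus be technical. In whole embryos, a mark carried by few cells and a weak mark in many cells cannot be told apart.

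H3K36me3 is histone H3 trimethylated at lysine 36. In Drosophila most of it is placed by the enzyme Set2, which travels with elongating RNA polymerase II, so the mark lies over the bodies of transcribed genes and is low at their promoters. It is known for keeping transcribed bodies free of stray initiation through deacetylase recruitment in yeast, and on the male X chromosome of flies for helping the dosage compensation complex to spread over active genes. The fly genome is compact, and active genes often lie close together.

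Each list gives positions and a deposited score for each region and no read counts, so the depth behind a region is unknown. The score has no stated scale, and it is used only to rank and describe regions within a list. The whole lists held 4238 regions in replicate 1 and 4320 in replicate 2, of which 4068 and 4197 lay on the 6 arms. Packing, widths and scores come from the same calls as the choice of members, so they are described with no test. The 2 replicates are given side by side, and no test across them was made. Genes and sequences under the regions were not analysed here.

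The shortest gaps were the most frequent. On the 6 arms, 1316 of 4172 gaps between neighbouring series-level regions were under 2000 bases, which is 31.5%. Up to 2500 bases the number of gaps fell steadily with length, and from 3500 bases on it fell unevenly. There were 524 gaps under 500 bases, 354 from 500 bases, 244 from 1000 bases and 194 from 1500 bases. The next 500 bases beyond the limit held 166. No break in spacing therefore marks off the packed regions at 2000 bases. Inside runs there were 729 gaps, with a median of 607 bases and a middle 50% from 263 to 1139 bases. Of these, 305 gaps (41.8%) were under 500 bases. In 1 place, on 3R, neighbouring regions shared their boundary base.

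**Figure D1:**
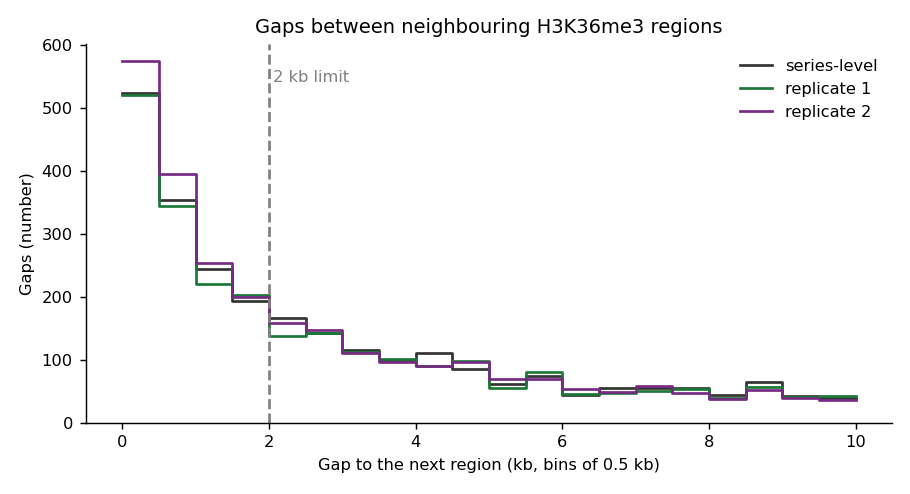
Number of gaps between neighbouring H3K36me3 regions on the 6 arms (vertical axis) by gap length in kb, in bins of 0.5 kb up to 10 kb (horizontal axis), for the series-level list and each replicate. The dashed line is the 2 kb limit; counts fall across it without a step, from 194 to 166 gaps in the series-level list.

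Most runs were short. Of the 290 runs, 188 (64.8%) held 3 regions and so 1 packed region, 67 held 4 regions, 25 held 5, 8 held 6 and 2 held 7. Run spans had a median of 20985 bp and ranged from 8317 to 71473 bp. Regions filled a median of 92.4% of a run, with a range from 72.4% to 99.4%. Together the runs spanned 6.65 Mb, or 5.53% of the 6 arms, and the packed regions themselves covered 2.59 Mb, or 10.8% of all covered sequence. Beyond its ends a run stood a median of 10139 bases from the next region. Successive runs on an arm lay a median of 207287 bases apart, and 22 of 284 such distances were under 10 kb.

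A short gap was followed by another short gap only slightly more often than a longer gap was. In the series-level list, 439 of 1314 regions with a short gap before them (33.4%) also had a short gap after them, against 876 of 2852 regions with a longer gap before them (30.7%). The difference was 2.69 percentage points. By the same measure it was 2.73 points in replicate 1 and 2.72 points in replicate 2, a mean of 2.72 ± 0.00599 points (SD, n = 2). At a limit of 1000 bases the replicates gave 3.74 and 1.22 points, and at 10000 bases 4.07 and 3.62 points. Knowing that a region was close to its neighbour on 1 side thus told little about its neighbour on the other side.

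By arm, the replicates often gave unlike values. X had a positive difference in all 3 lists, at 6.21 points in the series-level list, 6.86 in replicate 1 and 3.28 in replicate 2. Arm 3R was also positive in all lists, at 3.89, 3.61 and 1.56 points. On 2L the series-level value was -0.19 points, while the replicates gave 1.25 and 4.66. On 2R it was -0.60 points, with 1.82 and 4.95 in the replicates. Arm 3L changed sign between replicates, with 0.29 and -1.95 points. Chromosome 4 swung from -9.62 to 13.1 points, on 24 and 30 regions with a short gap before them.

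**Figure D2:**
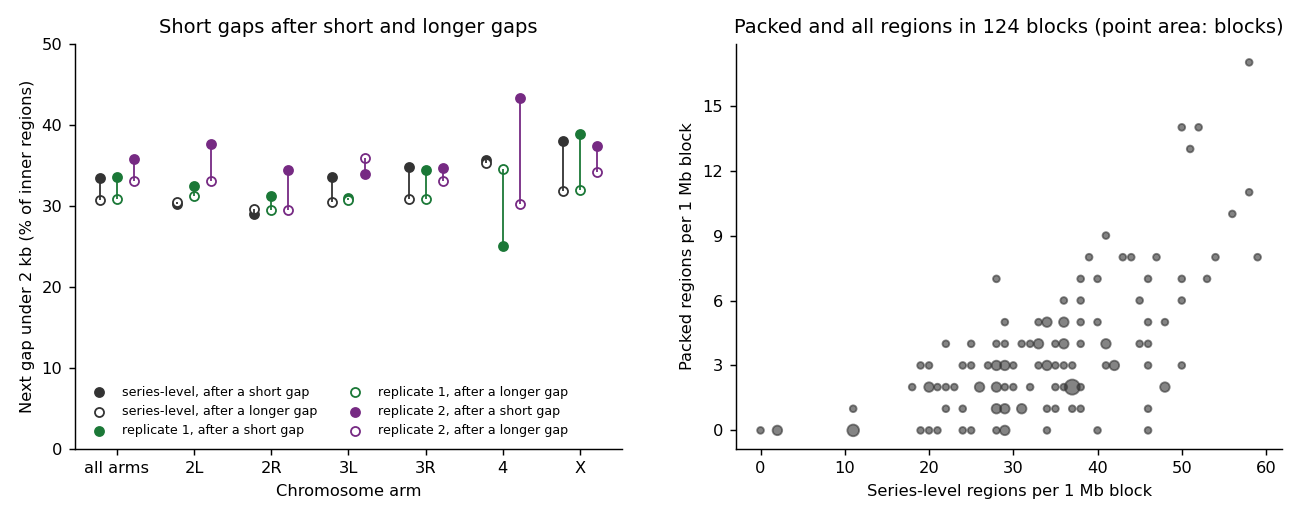
Left: percent of inner regions whose next gap was under 2 kb, after a short gap (filled) and after a longer gap (open), for all 6 arms and each arm, in the 3 lists; over all arms the filled points lie 2.69 to 2.73 points above the open ones. Right: packed regions (vertical) against all series-level regions (horizontal) in 124 blocks of 1 Mb, shorter at the end of each arm. Point area gives the number of blocks, and the block with the most packed regions held 17 among 58 regions.

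The run with the most packed regions, together with another of the same number, lay on 3L from 16567360 to 16610650 (FlyBase release 5 coordinates, as for all positions here). It held 7 series-level regions of 1997 to 9139 bp, separated by gaps of 213 to 1069 bases, and regions filled 91.7% of its 43291 bp. All 5 packed regions of this run were also packed in replicate 1, where the run had 7 regions. Replicate 2 divided the fifth region, so the run there had 8 regions, of which 6 were packed. The narrowest member, 1997 bp wide from 16572780, had the lowest score of the run at 0.39, while the highest, 1.84, belonged to the next region. Replicate 1 thus had the same 7 regions as the series-level list, and replicate 2 differed from it in number at the fifth region. The last region, 4433 bp wide in the series-level list, was 2606 bp in replicate 1 and 4017 bp in replicate 2. Regions covered 86.0% of the run in replicate 1 and 85.5% in replicate 2.

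The other run with 5 packed regions, on X from 21846188 to 21878782, differed between the libraries. Its 7 series-level regions were 1725 to 6153 bp wide, and the series-level list placed no region in the 345761 bases before it. Replicate 1 had 6 regions there with 2 packed, and replicate 2 had 5 regions with 1 packed. The region from 21863562 to 21865286, with a score of 0.42, had no counterpart in either replicate. Its neighbour from 21865370 to 21867842, with a score of 0.50, was found in replicate 1 alone. Regions covered 84.9% of the run in the series-level list, 78.4% in replicate 1 and 60.1% in replicate 2.

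Next in order came 3 runs of 6 regions with 4 packed regions each. On X from 15754754 to 15802876, the run was built around a region 14917 bp wide with a score of 2.46, beside a neighbour of 2213 bp that scored 0.61. All 4 packed regions recurred as packed in replicate 1, against 1 packed region in replicate 2. On 2R from 14016006 to 14059498, scores ran from 1.15 to 2.25, and the last region, 13935 bp wide, was 1 region in replicate 1 and 3 regions in replicate 2. On 3R from 18535334 to 18576570, the run had 6 regions in each replicate, but not the same 6. In replicate 2 the fifth series-level region had no counterpart, and the last was divided into 2. None of the 6 regions was packed in replicate 2, where regions covered 71.1% of the run. In replicate 1, 4 were packed and regions covered 84.4% of the run. Of these 3 runs, those on X and 3R thus held regions of low score among regions of high score. On 2R the lowest score was 1.15.

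**Figure D3:**
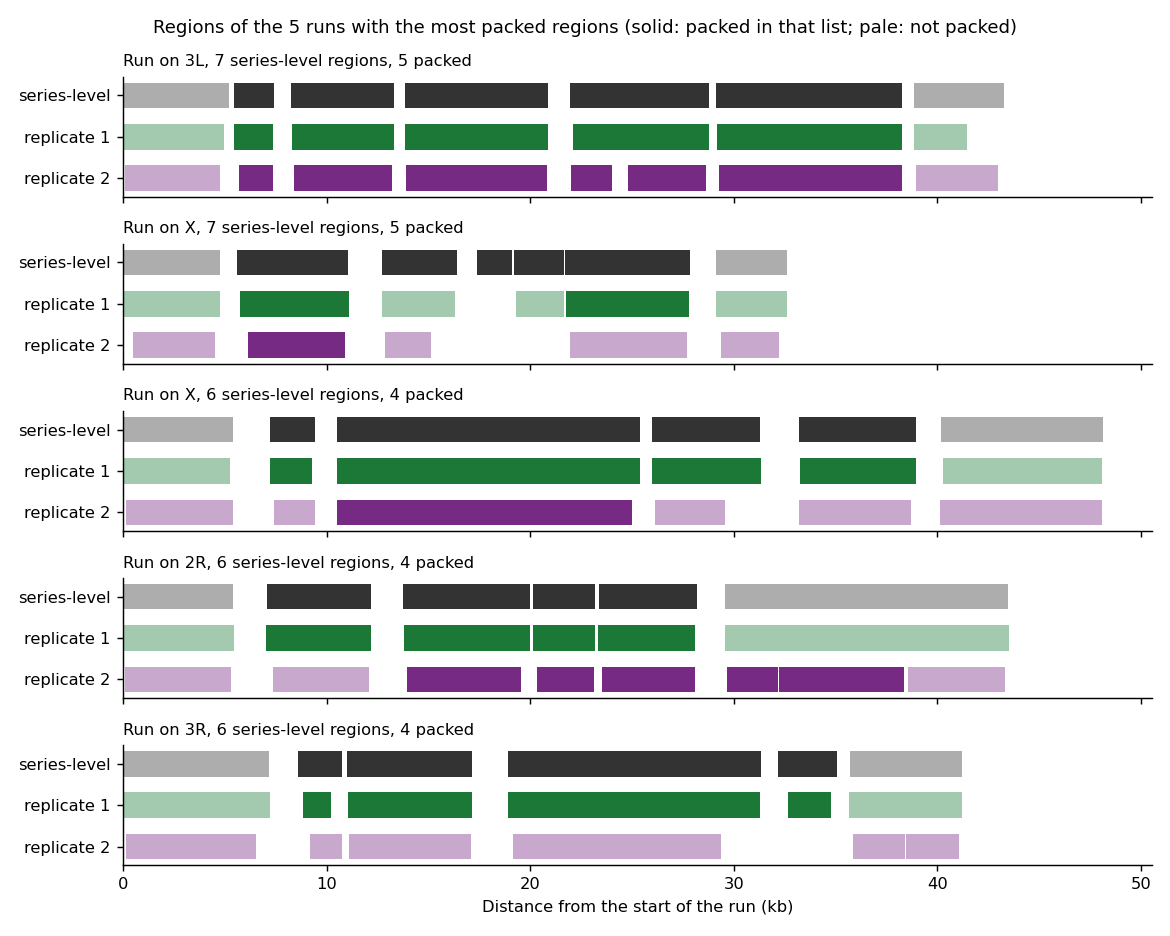
Regions of the 5 runs with the most packed regions, drawn to scale by distance in kb from the start of the run, in the series-level list, replicate 1 and replicate 2. Solid bars are packed in that list and pale bars are not; the first run has 7 regions in the series-level list and replicate 1 and 8 in replicate 2, and the last, on 3R, has 0 packed regions in replicate 2.

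Over all runs, neighbours were about as unlike each other in score as regions farther apart. The widest region of a run was a median of 2.99 times as wide as the narrowest, and scores within a run spanned a median of 0.99. Neighbours inside runs had scores that were almost unrelated across 729 neighbouring pairs (Pearson r = 0.023, Spearman rho = 0.0034). The same measure was rho = 0.023 over 714 pairs in replicate 1 and 0.011 over 826 pairs in replicate 2. For series-level neighbours 2000 to 10000 bases apart it was rho = 0.097 over 1256 pairs, against 0.068 over 1194 pairs in replicate 1 and 0.028 over 1215 pairs in replicate 2. Widths of neighbours inside runs gave rho = -0.016. These correlations are a description, since the points share a library and often a region. Of the packed regions, 158 (35.99%) scored lower than both neighbours and 140 (31.9%) higher than both, where each background share over 4166 inner regions was 33.1%.

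In the series-level list, packed regions were slightly wider and higher-scored than other regions, and replicate 2 did not show it. The median width of the 439 packed regions was 4991 bp, with a middle 50% from 3243 to 7764 bp and extremes of 1039 and 28745 bp. The 3739 other regions had a median of 4629 bp, so the difference was 362 bp. Taking packed regions anew in each replicate list gave a difference of 350.5 bp in replicate 1 (4964 against 4613.5 bp) and -47 bp in replicate 2 (4211 against 4258 bp). The mean of these, 151.75 ± 281 bp (SD, n = 2), did not exceed the spread between replicates. Scores behaved alike, with medians of 1.56 against 1.49 in the series-level list, 1.63 against 1.56 in replicate 1 and 1.57 against 1.57 in replicate 2. Width and score rose together among packed regions (Spearman rho = 0.658 across the 439 regions), so these are not separate observations. Very wide regions were no commoner among them, since 52 of 439 (11.8%) were at least 10 kb wide, against a background of 12.0%.

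The other regions were not all alike. At the ends of runs, 580 regions had medians of 5075 bp and 1.59 in score, so the small excess over other regions was not seen against them. The 1174 regions in pairs, which are chains of 2 regions, had medians of 4708 bp and 1.46. The 1985 spaced regions, with no short gap on either side, had medians of 4405 bp and 1.47. In replicate 2 the medians were 4211 bp for packed regions, 4635.5 bp for run ends, 4293.5 bp for pairs and 4144 bp for spaced regions.

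Packed regions with the tightest gaps were the narrowest among them. Where both gaps were under 500 bases, the median width was 4281 bp and the median score 1.41, over 85 regions. Widths rose to 4579 bp where the larger gap was 500 to under 1000 bases, to 5241 bp at 1000 to under 1500 bases and to 5638 bp at 1500 to under 2000 bases. In replicate 1 the same steps were 4287.5, 4710, 5154.5 and 5339 bp. In replicate 2 they were 4067, 4129, 4169 and 4429 bp. The order was therefore the same in all 3 lists, with a smaller range in replicate 2. Median scores also rose in that order in the series-level list, from 1.41 to 1.68, and in replicate 1, from 1.49 to 1.73. In replicate 2 they were 1.57, 1.48, 1.57 and 1.66, which is not that order.

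**Figure D4:**
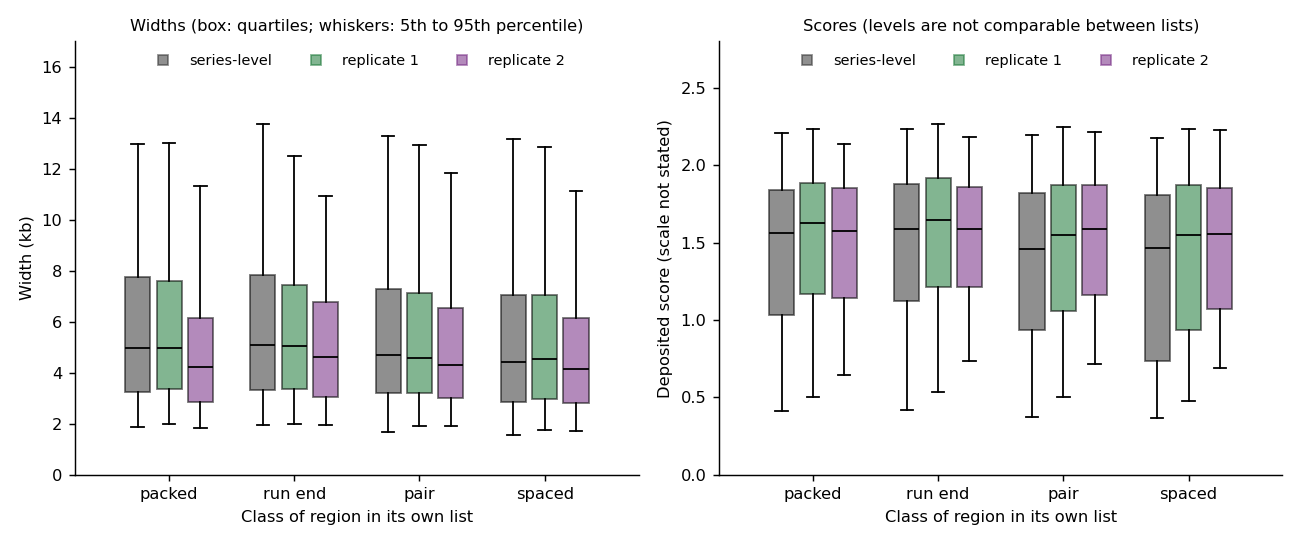
Widths in kb (left) and deposited scores (right) of packed regions, run ends, regions in pairs and spaced regions, each classed within its own list; boxes show quartiles and the median, whiskers the 5th to 95th percentile. The boxes overlap almost fully; median widths of packed and spaced regions are 4991 and 4405 bp in the series-level list and 4211 and 4144 bp in replicate 2.

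Packed regions occurred on every arm, at shares from 8.53% to 12.9% in the series-level list. Over all 6 arms 10.5% of regions were packed in the series-level list, and the rule itself fixes that share. By arm it was 8.53% on 2R (72 regions), 9.15% on 2L (65), 10.5% on 3L (84), 11.1% on 3R (106), 12.3% on chromosome 4 (10) and 12.9% on X (102). The 95% Wilson interval was 10.8% to 15.5% for X and 8.91% to 10.9% for the large autosomal arms together, at 9.88%. Such intervals hold counting error alone, and neighbouring regions are not independent. In the replicate lists X stood at 13.4% and 13.2%, and the large autosomal arms at 10.0% and 11.7%. X was higher in both, by 1.33 times in replicate 1 and 1.13 times in replicate 2, and no test of that difference was made. Among the large arms, 2R had the most regions per Mb, at 39.9, but the lowest packed share, a place it also had in both replicate lists.

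Chromosome 4, the small dot chromosome whose active genes lie in heterochromatin-like surroundings, had few packed regions. It held 10 in the series-level list, 6 in replicate 1 and 13 in replicate 2. The packed share was 11.5% ± 5.38 (SD, n = 2) over the replicates, and its ratio to the autosomal arms was 0.767 in replicate 1 and 1.30 in replicate 2, so no direction can be given. Per Mb the chromosome still held 7.40 packed series-level regions, against 3.38 on the autosomal arms, with 59.9 and 34.3 regions of any kind per Mb. Its packed regions were narrower than its other regions in all 3 lists, at medians of 4105 against 7823 bp in the series-level list, 4509 against 7404.5 bp in replicate 1 and 2918 against 5371.5 bp in replicate 2. Their median scores were 0.91 against 1.51, 0.88 against 1.53 and 1.01 against 1.57 in the same order. On 2L and 3L the series-level widths went the other way, at 6255 against 4553 bp and 5779 against 4350 bp. In replicate 2 those arms had 4372 against 4382 bp and 4555 against 4034 bp.

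The scores of the 10 packed regions of chromosome 4 ranged from 0.30 to 2.59. A neighbouring couple from 466740 to 478034 and from 478990 to 487524, with a gap of 955 bases, scored 2.59 and 2.58, and its partners scored 2.59 and 2.59 in replicate 1 and 2.64 and 2.66 in replicate 2. Another couple, from 787634 to 793106 and from 793552 to 797832, with a gap of 445 bases, scored 0.54 and 0.79. The region from 336986 to 338734, 1749 bp wide with a score of 0.30, was found in neither replicate. Of the 10, 5 were packed in both replicates.

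Along the arms, packed regions were many where regions of any kind were many. The arms were cut into 124 blocks of 1 Mb, with a shorter last block on each arm. Across these blocks, the number of packed regions rose with the number of regions (Spearman rho = 0.610). This is a description, since the packed regions are part of all regions. In the 12 blocks with at least 50 regions, 18.4% of regions were packed. In the 102 blocks with 20 to 49 regions it was 9.18%, and in the 10 blocks with fewer than 20 regions 5.77%. More regions in a block leave less room between them, so the rule itself sets part of this rise. Some of the 10 blocks with fewer than 20 regions were short arm-end blocks, as on 2L, 2R and X, whose length limits their counts. The block from 19000001 to 20000000 on 2R held the most, with 17 packed among 58 regions, and 19 in each replicate. It was followed by 15000001 to 16000000 on X (14 packed in the series-level list, 15 and 11 in replicates 1 and 2) and by 10000001 to 11000000 on 2L (14, with 14 and 19). On 3L the block from 16000001 to 17000000 held 13 in every list. The 10 blocks with the most packed regions held 25.5% of them, and 17 blocks, some of them short arm ends, held 0. By block, packed counts of the replicates ranked alike (rho = 0.828 across 124 blocks).

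No end of the arms stood out. When each large arm was divided into 5 equal parts from telomere to centromere, packed shares were 9.98%, 11.5%, 10.3%, 11.4% and 9.15% in the series-level list. They were 10.4%, 11.6%, 11.1%, 11.0% and 9.36% in replicate 1, and 11.2%, 12.1%, 13.6%, 10.9% and 12.3% in replicate 2. The part next to the centromere was the lowest in the series-level list and replicate 1, and the second highest in replicate 2. The 50 kb on each side of a packed region were covered to a median of 38.8%, against 26.0% for other regions and 21.3% for spaced regions. The rule asks for near neighbours and so sets part of that difference. Counted from the ends of a whole run, the same distance was covered to a median of 24.4%.

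Packed regions were present in both libraries at a share near that of all regions, while their packing recurred less often. Of the 439, 407 (92.7%, Wilson interval 89.9 to 94.8) overlapped a region in both replicates by at least 1 base. The background over all 4178 regions was 88.8%, with 94.1% for run ends, 90.1% for pairs and 85.6% for spaced regions. Replicate 1 held 423 of the packed regions (96.4%, background 94.7%) and replicate 2 held 408 (92.9%, background 89.8%). The 32 packed regions that were not in both were narrow, at a median of 1661 bp, and scored 0.25 to 0.66. The 435 other regions not in both were about as narrow, at a median of 1695 bp. Their median score was 0.40, against 0.41 for the 32. A packed region of replicate 1 overlapped 378 members (86.1%, background 10.0%), and a packed region of replicate 2 overlapped 307 (69.9%, background 10.8%). In both replicates 297 members were packed (67.7%, background 7.78%), and these backgrounds are low by the choice of members. How the series-level list was made is not stated. Presence, packing and gaps in the replicate lists can thus not be taken as independent of it. Of the 290 runs, 241 had all their members packed in replicate 1 and 188 in replicate 2.

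Gaps inside runs were rarely closed in either library and were wider in replicate 2, and the gaps of pairs showed the same. Of the 728 run gaps at least 1 base long, replicate 1 bridged 5 (0.687%, Wilson interval 0.294 to 1.60) and replicate 2 bridged 0, which allows a share of up to 0.412% by the limit of 3 counts (Wilson upper bound 0.525%). Such limits hold counting error alone, within 1 library, and neighbouring gaps are not independent. Of the 587 pair gaps, each replicate bridged 4 (0.681%). Replicate 1 left 475 of the run gaps wholly uncovered (65.2%, pair gaps 63.4%), and replicate 2 left 658 (90.4%, pair gaps 87.4%). Where a replicate had a gap of its own at such a place, its median was 751 bases in replicate 1 and 1149 bases in replicate 2. The series-level medians there were 611 and 607 bases. A replicate gap is measured between the nearest regions of that replicate. Where a flanking region is absent there, the gap spans its place too, so these values mix wider gaps with lost regions. For pair gaps these medians were 950 and 1299 bases, against 721 bases. In replicate 2 the gap reached 2000 bases at 155 of 727 run places (21.3%, pair gaps 30.0%), against 62 of 723 (8.58%, pair gaps 12.2%) in replicate 1. Of the 722 run places with a gap in both replicates, it was wider in replicate 2 at 640 (88.6%, pair gaps 86.4%) and narrower at 80. Beside this, among 358 packed regions with a single partner in each replicate, the replicate 1 partner was the wider in 317 (88.5%, background 87.3%), by a median of 225.5 bp.

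Of the 132 members not packed in replicate 2, 62 had a gap of 2000 bases or more there, 39 had lost a neighbour and 31 were not found themselves. Of the 61 not packed in replicate 1, the counts were 20, 22 and 16, and 3 more were joined to a neighbour. Fewer members recurred as packed where gaps were longer, and the rule sets part of this. The same limit of 2000 bases applies in each list, so a gap near it needs little widening to pass it. Where the larger gap was under 500 bases, 70 of 85 members (82.4%) were packed in both replicates, and where it was 1500 to under 2000 bases, 43 of 108 (39.8%) were. Presence in both replicates was 91.8% and 93.5% in the same groups. The replicate lists also held packed regions of their own. In replicate 2, 343 of its 508 packed regions matched a packed series-level region best, while 165 matched a run end, a region in a pair or a spaced region, and all 165 shared that series-level region with another replicate 2 region. Applied to each replicate list, the rule found 432 and 508 packed regions, a mean of 470 ± 53.7 (SD, n = 2).

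**Figure D5:**
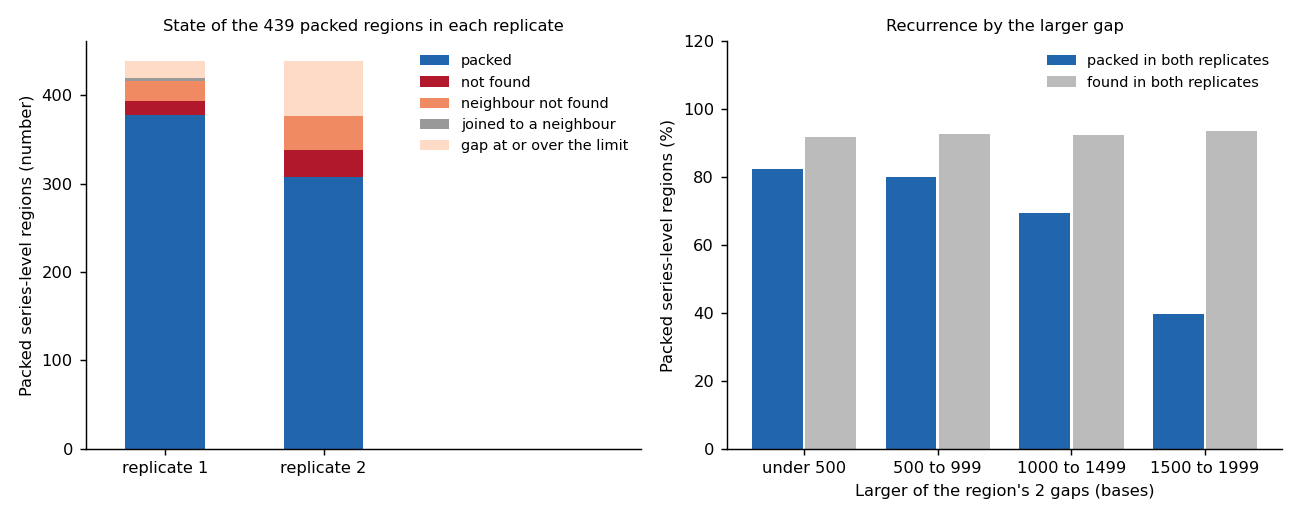
Left: number of the 439 packed series-level regions that were packed in each replicate, not found, missing a neighbour, joined to a neighbour, or set apart by a gap of 2000 bases or more. Right: percent packed in both replicates and percent found in both, by the larger of a region's gaps in bases. Packing in both falls from 82.4% to 39.8% while presence stays between 91.8% and 93.5%. The limit of 2000 bases applies in each list, which sets part of that fall.

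Scores of packed regions ranked alike in both libraries. Over the 358 packed regions with a single partner in each replicate, the partners' scores had Pearson r = 0.961 and Spearman rho = 0.955, and rho was 0.958 over 2918 such other regions. The points of these correlations are regions from the same libraries, not replicates. The highest-scored packed regions lay on 3L from 8990932 to 8996928 (score 2.63, with partners at 2.60 and 2.70) and from 6736616 to 6745328 (2.61, with 2.62 and 2.58), followed by the chromosome 4 region from 466740. The lowest were on 3R from 24858010 to 24859606 (0.25), on 2L from 10209374 to 10210582 (0.28) and on 2L from 2374418 to 2376306 (0.29). Of these 3, the last was found in both replicates, the first in replicate 1 alone and the second in neither.

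The widest packed region covered 28745 bp on 2R from 4771768 to 4800512, with gaps of 1591 and 1443 bases beside it, and replicate 2 held it as 2 regions. It was followed by 18981 bp on 3R from 20456986 to 20475966 and 18303 bp on 3L from 23307242 to 23325544, whose partners were 18920 and 18699 bp, and 18170 and 17613 bp. The narrowest, of 1039, 1069 and 1077 bp, on 3L from 17793974, on 3R from 8859802 and on 3L from 21492986, were found in neither replicate. The smallest gaps beside a member were the shared base on 3R, next to the region from 11094474 to 11100904, 1 base on X next to that from 5218550 to 5223766, and 5 bases at 3 tied places. These lay next to the regions from 5526686 to 5542520 on 2L and from 7316382 to 7332436 on 3L, and between the 3L members from 13004258 to 13008658 and from 13008664 to 13015440.

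Regions at the edge of the rule were of both kinds. Just inside the limit were the chromosome 4 region from 336986, with a larger gap of 1999 bases and a score of 0.30, and 2 neighbours on 3R from 1373850 to 1375782 and from 1377768 to 1380380, which share a gap of 1985 bases and scored 0.38 and 0.86. Just outside were regions on 2L from 2222868 to 2226692 (2001 bases, score 1.68), on 3R from 20342012 to 20343114 (2003 bases, 0.38) and on 2L from 4977268 to 4981434 (2009 bases, 0.96).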

How the data were processed

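The authors deposited 1 list of enriched regions per ChIP replicate and 1 for the series. Bowtie 0.12.7 is the only tool named, per the submitters' processing notes. The region caller, its threshold and how the series-level list was made were not given in the sources used here. Positions are on FlyBase release 5, per the file headers. The deposited score has no stated unit. The gene table at hand is of release 6, and no coordinates were converted.

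A gap is the number of bases between 2 neighbouring regions of a list. Runs, overlaps (at least 1 base), blocks of 1 Mb (by a region's midpoint) and Wilson intervals at 95% were computed with scipy 1.17.1, pandas 2.3.3 and numpy 2.4.6 under Python 3.11.15. The rule was tested on simulated data with planted runs. A member is packed in a replicate when it overlaps a region that is packed in that list. "Lost a neighbour" means that a neighbouring series-level region overlaps nothing there. The named runs and regions are the 5 runs with the most members (ties by span), and the 3 members that are widest, narrowest, highest-scored, lowest-scored, with the smallest gaps (ties included), and nearest the limit on each side; the blocks, and the chromosome 4 regions, were chosen after their values were seen. The members, rules and alternatives were chosen with earlier results of these data known. The alternatives were other gap limits, overlaps and lists, the higher-scored 50% of regions, and leaving out each replicate.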

Additional observations from a re-analysis of the deposited data

How the results depend on the processing

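Of 56 alternative settings over 10 results, 36 kept the value within its spread (for counts, within 1.5 times), 13 moved it beyond and 7 turned a sign; no result had a test. A sign could turn only for the width and score differences, so a chromosome 4 ratio falling below 1 was not counted as turned. A limit of 1000 bases gave 210 packed regions in 168 runs, and 3000 bases gave 670 packed regions. Both follow from the rule. The width difference of 362 bp became -213 bp at 1000 bases, -300 bp with the higher-scored 50% of regions, -47 bp in the replicate 2 list and -84 bp against run ends only. The score difference of 0.0702 became -0.0624, -0.000428, 0.00161 and -0.0289 in the same order. No direction can be given for either, and the cause was not tested. The higher-scored 50% also left 75 packed regions in 63 runs. The chromosome 4 ratio of 1.25 was 0.767 in the replicate 1 list and 0.904 with only regions found in both replicates, an alternative chosen after seeing the data, which kept 359 packed regions and a width difference of 113 bp. The share found in both replicates was 88.6% for packed and 85.3% for other regions with an overlap of 50% of the series-level region, 88.2% and 85.3% with 50% of both lengths, and 100% and 99.8% with the higher-scored 50%. The rule's count ranged from 432 to 508 without either ChIP replicate. No paired analysis was possible because the input libraries have no values of their own here. Genes were not analysed. Without read counts, a gap with weak enrichment cannot be told from an unmarked gap.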

Other observations

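All 4178 series-level regions on the arms started and ended at an even position, whereas 49.7% of replicate 1 regions and 50.2% of replicate 2 regions started at one. Series-level positions therefore step by 2 bases, which limits how finely their gaps are known.

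The same gap limits were met by 9 of 144 series-level regions on the heterochromatin scaffolds (6.25%), 4 of 100 in replicate 1 and 5 of 80 in replicate 2. On the unplaced sequence U they were met by 1 of 146 series-level regions and by 0 of 70 and 0 of 43 regions in the replicates.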
